A study of Mus musculus with 9 samples.

Results

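The miR-17-92 cluster is a run of 6 microRNA hairpins that are cut from a common primary transcript. Its 9 mature products listed by name were read from a table of 946 mature microRNA rows, and all 9 had a row. Together they held 23068 of the reads in 9 mouse liver libraries, between 0.0294% and 0.0473% of the reads of a library. The mice were wild type, C57 BL6 and 8 weeks old, and their livers gave 3 groups of 3 libraries. The dmPGE2+APAP group received 300 µg/kg of dmPGE2, a methylated analog of prostaglandin E2, into the peritoneum 1 h before 500 mg/kg of acetaminophen (APAP), a drug that injures hepatocytes at high dose. The APAP group received 500 mg/kg of APAP alone, and the Control group received saline. Livers were taken 6 h after the APAP injection. No group with dmPGE2 alone was analysed here, so dmPGE2 was measured only on top of APAP. Nothing in the labels ties each library to its own animal. The p-values therefore reflect only how far these libraries spread, part of which may be technical.

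MicroRNAs load into Argonaute proteins and repress messenger RNAs that pair with their seed, bases 2 to 8 from the 5′ end. The miR-17-92 transcript is activated by MYC and E2F transcription factors and is known for promoting proliferation and survival, in part through repression of the cell-cycle inhibitor Cdkn1a (miR-17 seed). In liver it is known mainly from regeneration and hepatocellular carcinoma, whereas hepatocytes at rest make it at low level.

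The mature sequences are shown first because they set which rows can be told apart. RefSeq (GRCm38.p6, which is mm10) is their source. They are written 5′ to 3′ with the seed in capitals, and 9 of 9 members had an entry. In the table each name carries the mouse prefix, as in mmu-miR-17-5p, mmu-miR-19a-3p, mmu-miR-19b-3p and mmu-miR-92a-3p.
miR-17-5p: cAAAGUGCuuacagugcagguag
miR-20a-5p: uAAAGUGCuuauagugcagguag
miR-18a-5p: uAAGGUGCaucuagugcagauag
miR-19a-3p: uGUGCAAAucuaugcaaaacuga
miR-19b-3p: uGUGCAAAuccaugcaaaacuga
miR-92a-3p: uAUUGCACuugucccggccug
miR-17-3p: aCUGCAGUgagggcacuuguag
miR-18a-3p: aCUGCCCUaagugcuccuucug
miR-92a-1-5p: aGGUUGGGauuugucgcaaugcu

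The guide strands thus fall into 4 seed groups, those of miR-17, miR-18, miR-19 and miR-92. miR-17-5p and miR-20a-5p share a seed and differ at 2 of 23 positions, C1U and C12U, counted from 1 at the 5′ end with the base of miR-17-5p first. miR-19a-3p and miR-19b-3p differ at 1 position, U11C, with the base of miR-19a-3p first. The other members of the list are the opposite arms of the miR-17, miR-18a and miR-92a-1 hairpins, which usually leave the duplex and are degraded. The mature lengths are 21 to 23 bases, so read counts per row were compared without a length term.

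The 6 hairpins lie on the plus strand of chromosome 14 between 115043671 and 115044506, in the order Mir17, Mir18, Mir19a, Mir20a, Mir19b-1 and Mir92-1, a span of 836 bases. The RefSeq record of the host long non-coding RNA Mir17hg runs from 115044390 to 115046728, so that 1 of the 6 hairpins, Mir92-1, lies wholly inside it. The hairpin of Mir17 (chr14:115043671-115043754) and that of Mir92-1 (chr14:115044427-115044506) are shown with both mature arms in capitals, since both arms of each were measured.
Mir17: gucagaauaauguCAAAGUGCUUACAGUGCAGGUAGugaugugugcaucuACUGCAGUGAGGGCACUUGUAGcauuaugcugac
Mir92-1: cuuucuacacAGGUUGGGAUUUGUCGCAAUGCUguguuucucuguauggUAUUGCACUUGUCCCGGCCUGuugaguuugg

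The mature sequences of miR-19b-3p and miR-92a-3p are also encoded by hairpins of the paralog cluster miR-106a-363 on chromosome X, Mir19b-2 (52741983 to 52742066) and Mir92-2 (52741838 to 52741928), both on the minus strand. Reads of these members cannot be assigned to a chromosome from the sequence. Of the 10 other arms listed for the X cluster, 5 had rows, with 78 reads in all libraries together. miR-106a-5p, which differs from miR-17-5p at 1 position (U10A, base of miR-17-5p first), held 2 reads, miR-20b-5p held 14 and miR-18b-5p held 4, against 1412 reads for miR-17-5p. The sequences of miR-106a-5p and miR-20b-5p are shown because they are so close to that of miR-17-5p.
miR-106a-5p: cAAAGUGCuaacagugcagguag
miR-20b-5p: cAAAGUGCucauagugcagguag

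Library totals ran from 1038799 to 6994952 reads in dmPGE2+APAP, from 3523998 to 7563788 in APAP and from 7590735 to 10483460 in Control. Levels are counts per 1000000 reads after TMM scaling (CPM), with the SD over 3 libraries. TMM sets library factors so that most rows stay level. A read was worth 0.852 CPM in dmPGE2+APAP replicate 2, the shallowest library, and between 0.0921 and 0.239 CPM in the others, so the lowest members carry wide counting error, most of all there. Intervals on reads cover counting error only, since PCR copies are not independent molecules. The test was edgeR's quasi-likelihood test over all rows that passed a filter on low counts, with Benjamini-Hochberg adjustment over those 360 rows. Of the 9 members, 7 passed the filter.

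miR-92a-3p was the member with the most reads. Its level was 285, 222 and 190.1 CPM in dmPGE2+APAP, 294, 267 and 270.4 CPM in APAP, and 226, 300.1 and 303 CPM in Control, in replicate order. The 3 groups overlapped. It supplied 68.3% ± 3.72 of the members' reads in dmPGE2+APAP, 67.1% ± 5.01 in APAP and 66.6% ± 2.42 in Control (SD, n = 3).

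Next came miR-20a-5p, whose level was 63.1, 46.9 and 58.5 CPM in dmPGE2+APAP, 76.0, 73.8 and 51.9 CPM in APAP, and 55.6, 86.1 and 79.1 CPM in Control. miR-19b-3p had 28.8, 23.0 and 22.9 CPM in dmPGE2+APAP, 34.8, 49.6 and 17.2 CPM in APAP, and 15.8, 45.1 and 37.9 CPM in Control. The spread of miR-19b-3p within APAP and within Control was wider than the distance between any pair of group means, and APAP replicate 3 and Control replicate 1 were its lowest libraries. miR-17-5p had 22.2, 14.5 and 18.6 CPM in dmPGE2+APAP, 29.1, 25.2 and 23.2 CPM in APAP, and 22.6, 25.8 and 29.5 CPM in Control. The 3 dmPGE2+APAP libraries lay below all APAP and all Control libraries for miR-17-5p, though the highest of them (22.2 CPM) was close to the lowest Control library (22.6 CPM). In 8.06% of all 360 rows they lay all below APAP, and in 8.61% all below Control. The share of rows below both groups was not counted.

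The remaining members were scarce. miR-17-3p, the opposite arm of miR-17-5p, had 4.52, 6.82 and 4.50 CPM in dmPGE2+APAP, 6.05, 4.93 and 6.22 CPM in APAP, and 3.52, 3.53 and 3.87 CPM in Control, and Control was lower than every other library. miR-18a-5p held 8, 0 and 6 reads in dmPGE2+APAP (1.13, 0 and 1.23 CPM), 12, 22 and 9 reads in APAP (1.73, 3.01 and 2.15 CPM), and 10, 10 and 16 reads in Control (1.47, 1.36 and 1.47 CPM). miR-19a-3p held 1, 0 and 1 reads in dmPGE2+APAP (0.141, 0 and 0.204 CPM), 11, 11 and 3 reads in APAP (1.58, 1.51 and 0.717 CPM), and 5, 21 and 12 reads in Control (0.734, 2.85 and 1.11 CPM). For both of these guide strands the dmPGE2+APAP libraries lay below all APAP and Control libraries, while APAP and Control overlapped for miR-19a-3p. Both rows passed the filter through APAP and Control libraries alone, so this order is no support. Of all 360 rows, 8.06% lay all below APAP and 8.61% all below Control, and the share below both was not counted. For libraries all above Control, as in miR-17-3p, the shares were 8.61% in APAP and 6.11% in dmPGE2+APAP.

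Neither miR-92a-1-5p nor miR-18a-3p passed the filter. miR-92a-1-5p had 3, 0 and 5 reads in dmPGE2+APAP, 2, 7 and 4 in APAP, and 6, 8 and 7 in Control, with no order between the groups beyond their spread. miR-18a-3p had 0, 2 and 1 reads in dmPGE2+APAP, 4, 1 and 0 in APAP, and 0, 0 and 2 in Control. Among the other arms of these hairpins, outside the list, miR-20a-3p held 8 reads in all libraries and miR-19b-1-5p held 1. A count of 0 in dmPGE2+APAP replicate 2 allows up to 3 reads, or 2.56 CPM, which is above every value of miR-92a-1-5p and of miR-19a-3p in APAP.

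**Figure D1:**
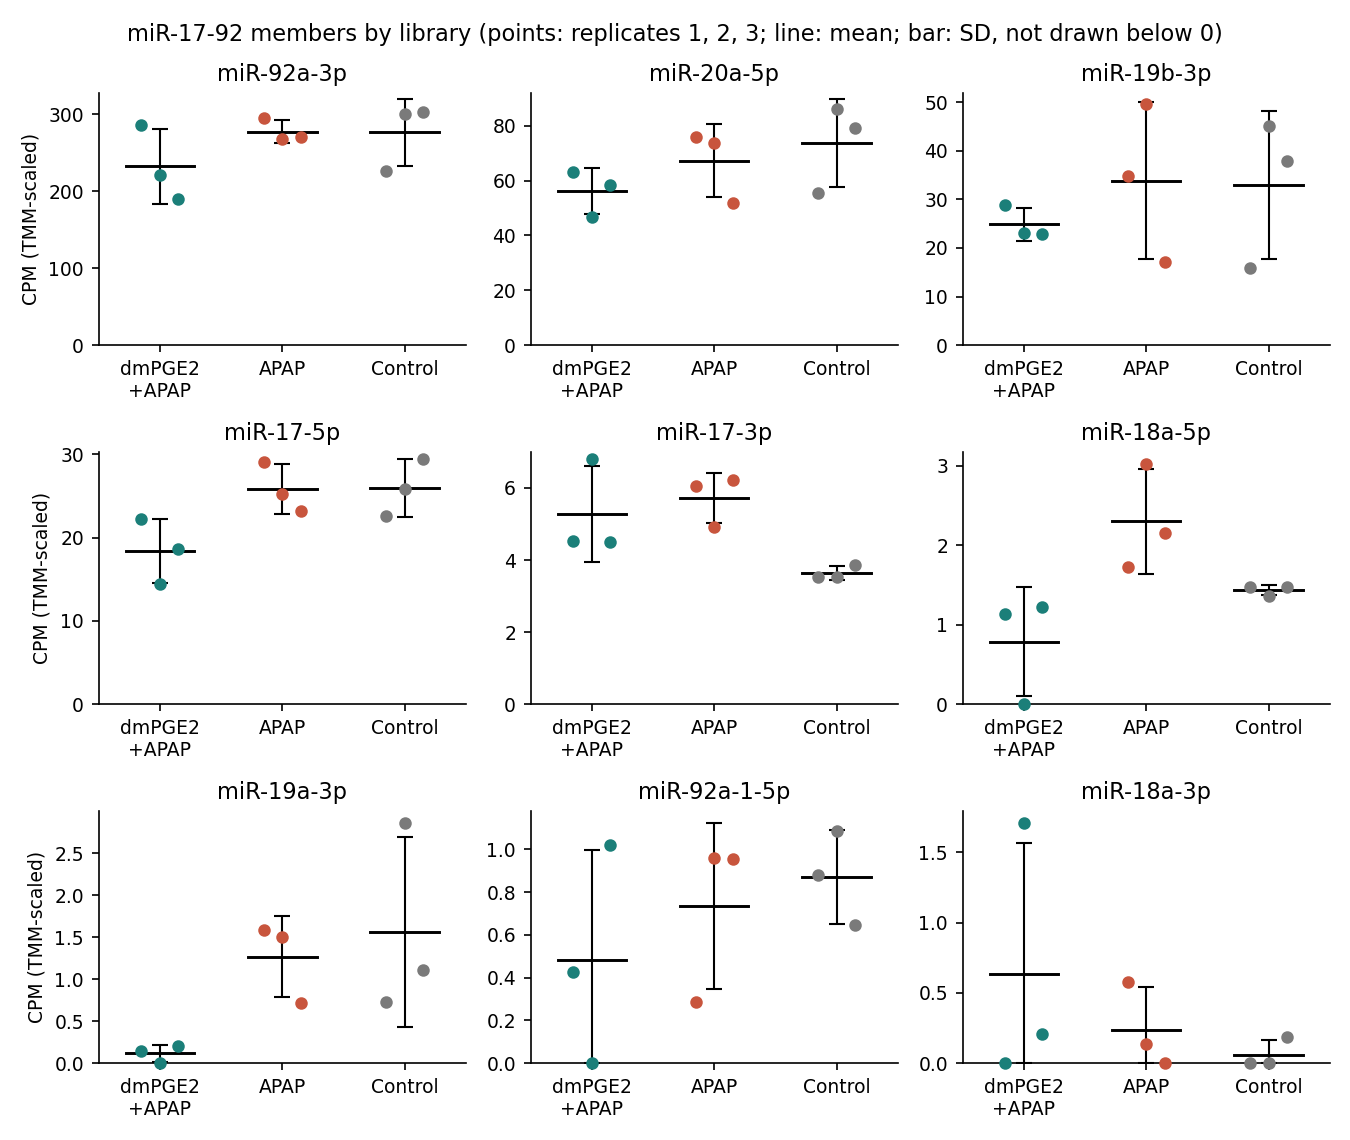
Level of each of the 9 members in CPM scaled by TMM, 1 point per library, with the mean and SD of each group of 3 (SD bars are not drawn below 0); the vertical axes start at 0 and differ between panels. miR-92a-3p stands at 190.1 to 303 CPM. In dmPGE2+APAP, miR-17-5p is at 14.5 to 22.2 CPM and miR-19a-3p is at 0.204 CPM or less.

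By mean CPM over all libraries the order was miR-92a-3p (262 CPM), miR-20a-5p (65.7), miR-19b-3p (30.6), miR-17-5p (23.4), miR-17-3p (4.88), miR-18a-5p (1.51), miR-19a-3p (0.983), miR-92a-1-5p (0.696) and miR-18a-3p (0.312). This orders read counts. Whether different sequences yield reads equally well was not measured, so molecules in the tissue may rank otherwise. The ranges over libraries of miR-92a-3p (190.1 to 303 CPM) and of miR-17-3p (3.52 to 6.82 CPM) touched no neighbour's. Neighbours from miR-20a-5p to miR-17-5p had overlapping ranges (46.9 to 86.1, 15.8 to 49.6 and 14.5 to 29.5 CPM), as did those from miR-18a-5p down.

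**Figure D2:**
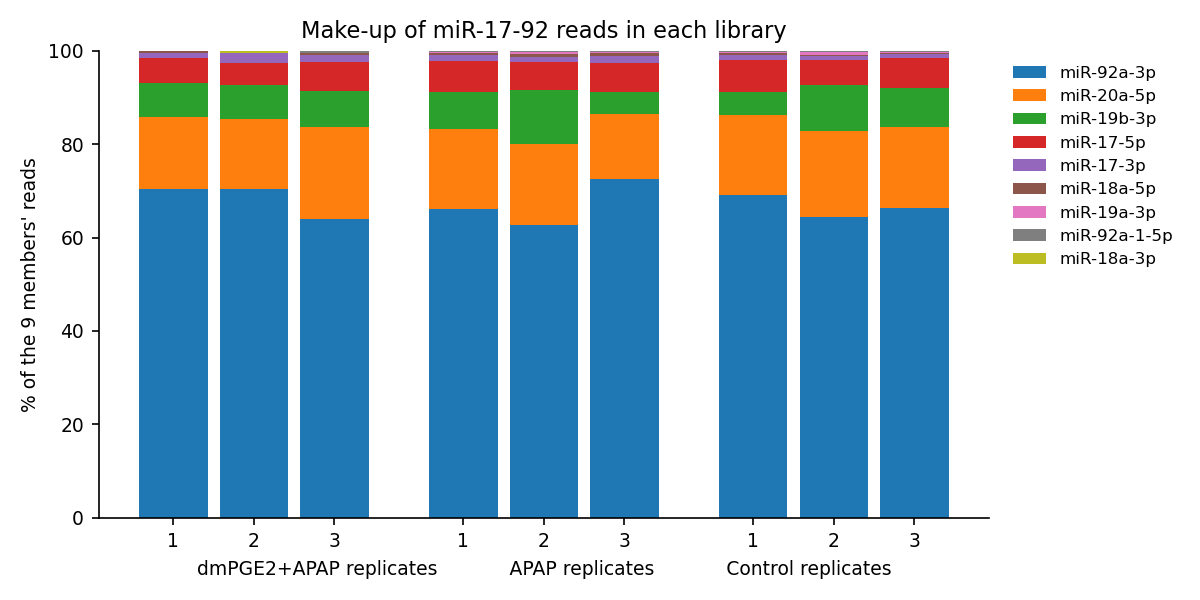
Share of each member in the reads of the 9 members, as stacked bars for each library from 0 to 100%, grouped as dmPGE2+APAP, APAP and Control replicates 1 to 3. miR-92a-3p takes 62.7% to 72.5% in every library, and the share of miR-19b-3p varies from 4.62% to 11.6%.

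Summed over the 9 rows, the cluster had 406, 314 and 297 CPM in dmPGE2+APAP, 445, 426 and 373 CPM in APAP, and 327, 466 and 457 CPM in Control. The sum overlapped between all groups, and Control replicate 1 lay apart from the other Control libraries.

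The first comparison asks what APAP does to the liver at 6 h. Of the 7 members tested, edgeR called 0 between APAP and Control at an adjusted p under 0.05, where 3 of all 360 rows were called (0.833%). At an unadjusted p under 0.05 it also found 0 members, where 6.39% of all rows were higher and 3.33% lower, and DESeq2 and limma-voom called 0. The abundant guide strands stood close to equal levels. miR-92a-3p averaged 277 ± 14.9 CPM in APAP and 276 ± 43.5 CPM in Control, a log2 fold change of 0.0043 (SE 0.21) with a 95% interval of -0.44 to 0.45. miR-17-5p averaged 25.8 ± 2.99 CPM in APAP and 26.0 ± 3.44 CPM in Control, a log2 fold change of -0.0072 (interval -0.52 to 0.50). For miR-20a-5p the log2 value was -0.13 (interval -0.63 to 0.37), and for miR-19b-3p it was 0.046 (interval -0.75 to 0.84). As fold changes the interval of miR-17-5p ran from 0.700 to 1.41, and that of miR-19b-3p was wider.

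The scarcer rows had larger values with wider intervals. miR-17-3p averaged 5.73 ± 0.699 CPM in APAP and 3.64 ± 0.198 CPM in Control, a log2 value of 0.64 (SE 0.31, edgeR adjusted p 0.500). miR-18a-5p averaged 2.30 ± 0.655 CPM in APAP and 1.43 ± 0.0646 CPM in Control, a log2 value of 0.68 (SE 0.47, edgeR adjusted p 0.618). In both rows all 3 APAP libraries were above all 3 Control libraries, a pattern that 8.61% of all 360 rows showed. miR-18a-5p was over the filter's cutoff in 3 APAP libraries and 1 Control library, so its APAP libraries alone carried it past the filter, and its direction is no support. miR-19a-3p stood at -0.22 (SE 0.58). Of the 7 log2 values 3 were below 0, beside 55.3% of all 360 rows, and their median was 0.0043, beside -0.046 over all rows. With library totals in place of TMM the median was 0.20 over all rows and 0.26 over the 7, so the sign of the values near 0 depends on the scaling.

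The second comparison asks what dmPGE2 before APAP changes relative to APAP alone. Of the 7 members tested, edgeR called 0, where 1 of all 360 rows was called (0.278%). DESeq2 and limma-voom called 0, and at an unadjusted p under 0.05 there was 1 member, miR-19a-3p, which was lower, where 3.89% of all rows were lower and 2.5% higher. All 7 log2 values were below 0, with a median of -0.44, whereas 50% of all 360 rows were below 0 and their median was 0.00037. This count is a description. miR-18a-5p and miR-19a-3p passed the filter through APAP and Control libraries alone, with 0 dmPGE2+APAP libraries over its cutoff, so their values had to lie below. The other rows come from hairpins of a common transcript and are not independent.

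Among the 5 members that reached the filter's cutoff in every library, miR-17-5p averaged 18.4 ± 3.86 CPM in dmPGE2+APAP and 25.8 ± 2.99 CPM in APAP. Its log2 fold change was -0.45 (SE 0.25, interval -0.98 to 0.07, edgeR adjusted p 0.785). miR-19b-3p stood at -0.44 (SE 0.39), miR-92a-3p at -0.25 (SE 0.21), miR-20a-5p at -0.25 (SE 0.24) and miR-17-3p at -0.20 (SE 0.33), with edgeR adjusted p between 0.896 and 0.923. Leaving out 1 library moved miR-19b-3p between -0.71 (without APAP replicate 3) and -0.049 (without APAP replicate 2). It moved miR-92a-3p between -0.43 and -0.11 (without dmPGE2+APAP replicates 1 and 3), and miR-20a-5p between -0.36 (without APAP replicate 3) and -0.10 (without dmPGE2+APAP replicate 2). Of these 5, miR-17-5p alone had dmPGE2+APAP libraries all below the APAP libraries, a pattern found in 8.06% of all 360 rows, while 5.83% had them all above. The interval of miR-92a-3p ran from 0.615 to 1.14 times the APAP level, so levels inside it remain compatible with these 3 libraries a group.

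miR-18a-5p averaged 0.786 ± 0.682 CPM in dmPGE2+APAP and 2.30 ± 0.655 CPM in APAP. Its reads summed to 14 in dmPGE2+APAP and 43 in APAP. After scaling for depth the ratio was 0.457, and its exact 95% interval for counting error ran from 0.231 to 0.851. Over the spread between libraries the log2 fold change was -1.16 (SE 0.56, edgeR adjusted p 0.703), which did not pass. No dmPGE2+APAP library was over the filter's cutoff for miR-18a-5p, so the ratio and its interval are no support for a decrease.

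miR-19a-3p showed the largest difference of the 7 tested members. Summed over libraries it held 2 reads in dmPGE2+APAP, 25 in APAP and 38 in Control. Scaled for depth, the ratio was 0.112 against APAP (exact 95% interval 0.0129 to 0.450) and 0.100 against Control (0.0117 to 0.388). At the APAP mean, dmPGE2+APAP replicates 1, 2 and 3 would have held 8.98, 1.49 and 6.21 reads, against the 1, 0 and 1 counted. The shallow replicate 2 therefore adds little, and the difference rests on replicates 1 and 3. The fitted log2 fold change was -2.97 against APAP (SE 0.98, edgeR adjusted p 0.273, unadjusted p 0.00834) and -3.19 against Control (SE 0.95, edgeR adjusted p 0.206, unadjusted p 0.00400). Neither passed over all rows. No dmPGE2+APAP library was over the filter's cutoff for this row, and its APAP and Control libraries alone carried it past. The ratios, expected reads, intervals and p-values are therefore a description and no support for a decrease of miR-19a-3p. In alternatives on the separate row its log2 value ranged from -3.23 to -1.04 against APAP and from -3.43 to -1.01 against Control. The values nearest 0 were from log2(TPM + 1), which shrinks low rows.

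miR-19b-3p, which shares the seed of miR-19a-3p and all but 1 base, had a log2 value of -0.44 in that comparison, and whether the 2 values differ was not tested. miR-19a-3p made up 0.488%, 0% and 0.885% of the reads of both rows in dmPGE2+APAP, 4.35%, 2.95% and 4% in APAP, and 4.42%, 5.95% and 2.83% in Control. Pooled over libraries the share was 0.580% (2 of 345 reads, exact 95% interval 0.0703% to 2.08%) in dmPGE2+APAP, 3.57% (25 of 701, 2.32% to 5.22%) in APAP and 4.27% (38 of 890, 3.04% to 5.81%) in Control. The pooled intervals of dmPGE2+APAP and of the other groups do not overlap, but they leave out the spread between libraries. Since miR-19a-3p passed the filter through APAP and Control libraries alone, the order of these shares is no support either. Summed as a seed family, the 2 rows gave a log2 fold change of -0.52 against APAP (SE 0.39, edgeR adjusted p 0.929) and -0.43 against Control (SE 0.39, 0.724), which is close to miR-19b-3p alone, since that row holds 96.6% of the family's reads.

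**Figure D3:**
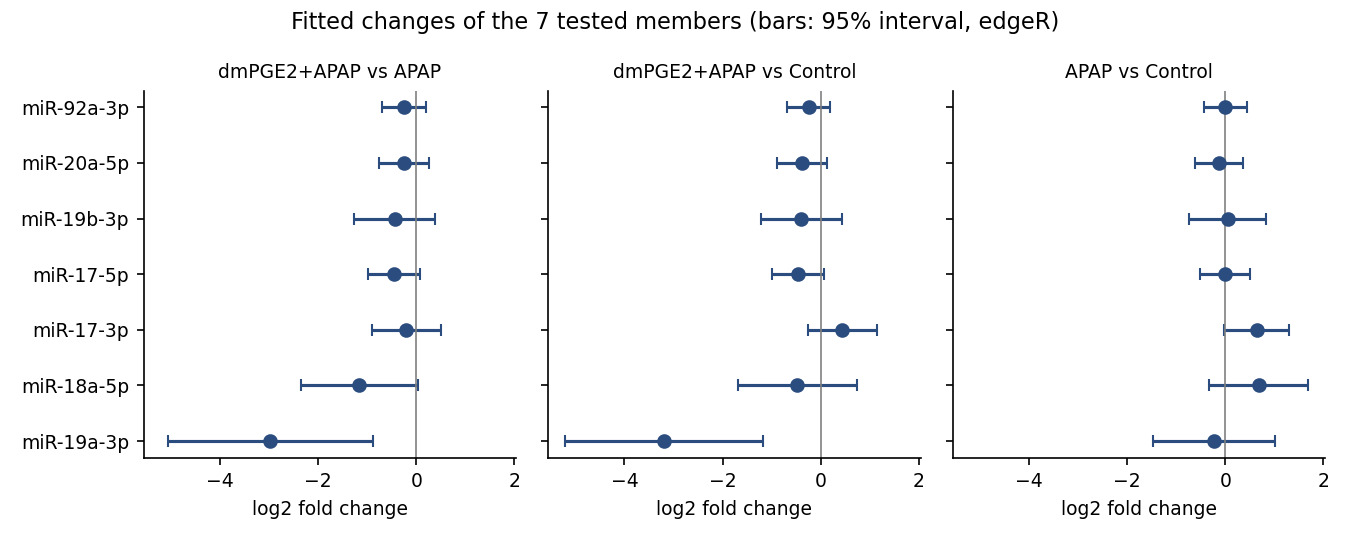
Fitted log2 fold changes of the 7 tested members (points) with 95% intervals from edgeR (bars), in 3 panels for dmPGE2+APAP against APAP, dmPGE2+APAP against Control and APAP against Control. All 7 points lie below 0 in the first panel, miR-19a-3p stands at -2.97 and -3.19 in the dmPGE2+APAP panels, and the abundant members lie near 0 in the APAP panel.

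Livers given both drugs were then set against Control. edgeR called 0 of the 7 members, where 1 of all 360 rows was called (0.278%). DESeq2 and limma-voom called 0, and at an unadjusted p under 0.05 there was again 1 member, miR-19a-3p, which was lower, where 5% of all rows were lower and 5.56% higher. That row was over the filter's cutoff in 2 APAP libraries and 1 Control library alone, so its direction is no support there. Of the 7 log2 values 6 were below 0, beside 53.9% of all rows. The log2 value was -0.46 for miR-17-5p (SE 0.25, edgeR adjusted p 0.489), -0.38 for miR-20a-5p (SE 0.24), -0.39 for miR-19b-3p (SE 0.38) and -0.25 for miR-92a-3p (SE 0.21). For miR-18a-5p it was -0.48 (SE 0.57), and for miR-17-3p it was 0.44 (SE 0.33). In 3 members (miR-17-5p, miR-18a-5p and miR-19a-3p) all dmPGE2+APAP libraries were below all Control libraries, which 8.61% of all 360 rows showed. Of these 3, miR-18a-5p and miR-19a-3p passed the filter with 0 dmPGE2+APAP libraries over its cutoff, so their place in this count and in the count below 0 is no support. In miR-17-3p they were all above, which 6.11% showed. The comparisons share the dmPGE2+APAP or Control libraries with those above, so these values are not independent of them.

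Among the reads counted for the Mir17 hairpin, the share of the 3p arm was higher in the treated libraries, which is a description. miR-17-3p made up 16.9%, 32.0% and 19.5% of the reads of both arms in dmPGE2+APAP, 17.2%, 16.4% and 21.1% in APAP, and 13.5%, 12.0% and 11.6% in Control. Every library of the treated groups lay above every Control library. Pooled, the share was 19.0% (62 of 327 reads, exact 95% interval 14.9% to 23.6%) in dmPGE2+APAP, 17.7% (104 of 587, 14.7% to 21.1%) in APAP and 12.2% (92 of 756, 9.92% to 14.7%) in Control. No test of this share was run, and how many other hairpins separate in this way was not counted. The row of miR-17-3p itself was not called (edgeR adjusted p 0.500 in APAP against Control). For either treated group against Control, an exact permutation test of 3 against 3 libraries cannot give a two-sided p below 0.1. The single high value of 32.0% rests on 8 of 25 reads in the shallowest library, with an interval of 14.9% to 53.5%.

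Shares of other pairs of members overlapped between groups. miR-17-5p made up 26.0%, 23.6% and 24.1% of miR-17-5p plus miR-20a-5p in dmPGE2+APAP, 27.7%, 25.4% and 30.9% in APAP, and 28.9%, 23.1% and 27.1% in Control. The arm miR-92a-1-5p made up 0.249% (8 of 3216 reads) of both miR-92a rows in dmPGE2+APAP, 0.253% (13 of 5139) in APAP and 0.297% (21 of 7061) in Control, and the exact intervals overlapped. miR-18a-3p made up 3 of 17 reads of its hairpin in dmPGE2+APAP, 5 of 48 in APAP and 2 of 38 in Control, too few to compare.

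**Figure D4:**
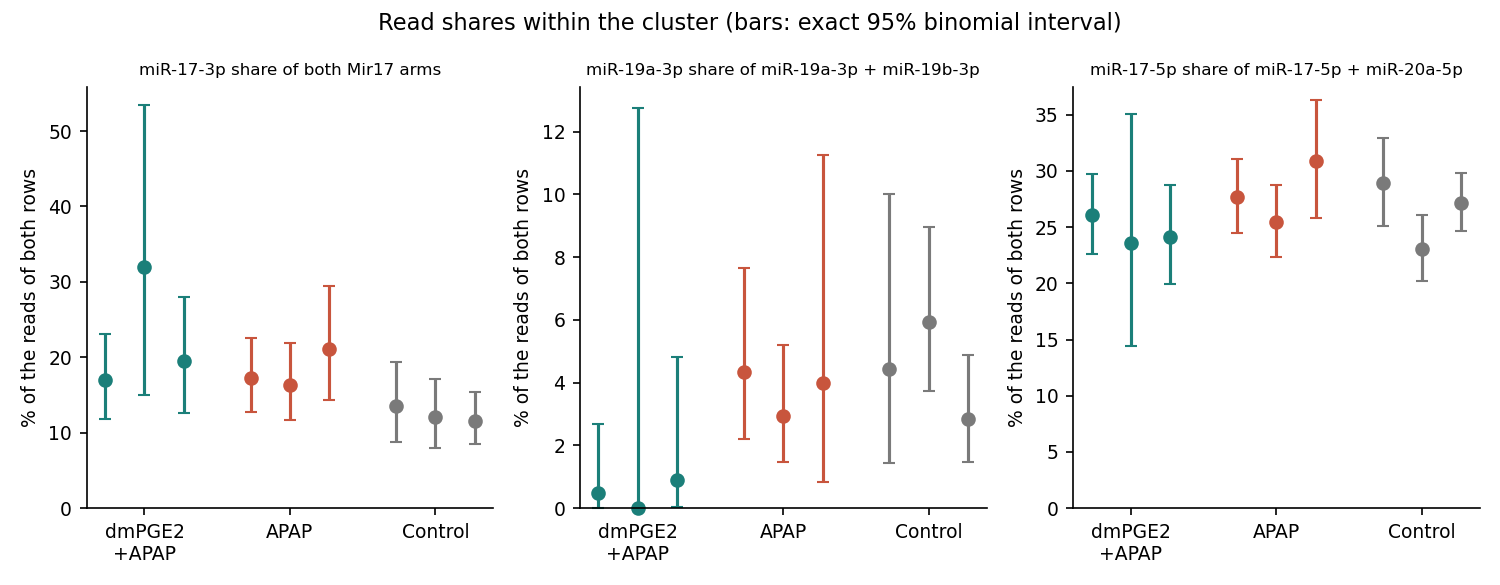
Share of reads within pairs of rows, in percent, 1 point per library with its exact 95% binomial interval, for dmPGE2+APAP, APAP and Control replicates 1 to 3. miR-17-3p takes 16.4% to 32.0% of both Mir17 arms in the treated libraries and 11.6% to 13.5% in Control, miR-19a-3p is under 1% of the miR-19 reads in dmPGE2+APAP, and the miR-17-5p to miR-20a-5p balance overlaps between groups.

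The members shared their seeds with rows from other hairpins. A sequence was matched to 795 of the 946 rows, and the seed sums below cover matched rows alone. Of the 28850 reads with the miR-17 seed, miR-17-5p and miR-20a-5p supplied 18.6%, whereas miR-93-5p of the paralog cluster miR-106b-25 on chromosome 5 supplied 73.0%. Of the 33360 reads with the miR-92 seed, miR-92a-3p supplied 46.1% and miR-25-3p, also of the chromosome 5 cluster, supplied 51.4%. Reads with the miR-18 and miR-19 seeds came almost wholly from the members, at 95.9% and 100%. Summed over all rows with a seed, edgeR gave dmPGE2+APAP against APAP log2 fold changes of -0.35 for miR-17 (SE 0.26), -0.24 for miR-92 (SE 0.19) and -1.10 for miR-18 (SE 0.56), with adjusted p between 0.701 and 0.929.
miR-93-5p: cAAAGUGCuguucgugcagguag
miR-25-3p: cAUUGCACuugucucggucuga

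**Figure D5:**
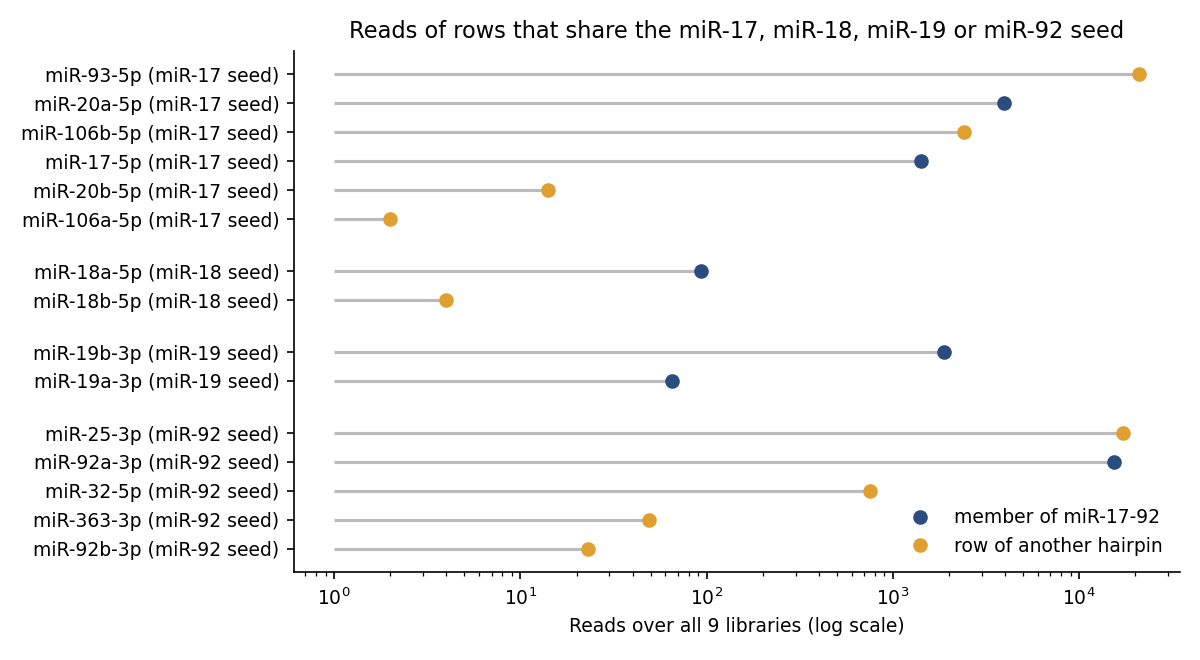
Reads over all 9 libraries (log scale) of each row matched to a sequence with the miR-17, miR-18, miR-19 or miR-92 seed. Members of miR-17-92 and rows of other hairpins are in different colours. miR-93-5p with 21072 reads and miR-25-3p with 17158 reads exceed the members of the same seed, and the chromosome X rows lie at 49 reads or fewer.

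In the miR-106b-25 cluster, which lies in an intron of Mcm7, a replication licensing gene, 4 of 6 listed arms were tested and 0 were called in any comparison. At an unadjusted p under 0.05 there was 1 higher in APAP against Control (miR-106b-3p, log2 0.57, SE 0.24) and 1 lower in dmPGE2+APAP against APAP (miR-106b-5p, log2 -0.51, SE 0.22), where 6.39% of all rows were higher in the APAP comparison and 3.89% lower in the dmPGE2 comparison. The median log2 value was 0.28 in APAP against Control, -0.30 in dmPGE2+APAP against APAP and -0.055 in dmPGE2+APAP against Control. miR-93-5p had 432, 252 and 231 CPM in dmPGE2+APAP, 472, 409 and 247 CPM in APAP, and 242, 373 and 451 CPM in Control. As for miR-19b-3p, APAP replicate 3 and Control replicate 1 were low within their groups. miR-32-5p, with the miR-92 seed, had a log2 value of -0.44 (SE 0.34) in dmPGE2+APAP against APAP.

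MicroRNAs that MYC represses were examined from a list of 28 rows, all tested. edgeR called 0 of them in each comparison. Between dmPGE2+APAP and APAP, 23 of 28 log2 values were below 0, beside 50% of all rows, with a median of -0.15. No test of MYC was run. Against Control, the median was -0.21 in dmPGE2+APAP, and -0.031 in APAP. Unadjusted p-values under 0.05 numbered 4 for lower and 1 for higher rows in dmPGE2+APAP, and 0 for lower and 2 for higher rows in APAP. Over all rows those shares were 5% and 5.56% in dmPGE2+APAP, and 3.33% and 6.39% in APAP. The most abundant of the list was miR-26a-5p, with means of 19681 CPM in dmPGE2+APAP, 20647 CPM in APAP and 24069 CPM in Control. Next in abundance, miR-30a-5p had a log2 value of -0.16 for dmPGE2+APAP against APAP (SE 0.22), let-7f-5p had -0.21 (SE 0.19) and miR-22-3p had -0.056 (SE 0.20).

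Across the 9 libraries, the rows most like the cluster were found by Pearson's r between log2 CPM and the mean profile of the 4 members with at least 10 CPM. Of 202 other rows at that abundance, the 5 highest were miR-374c-3p (r = 0.93), miR-374b-5p (0.92), miR-103-3p (0.91), let-7a-5p (0.91) and miR-93-5p (0.89). The rows of miR-374c-3p and miR-374b-5p differ by at most 9 reads in any library, so they count nearly the same reads. The values are a description over 9 points that share library depth and scaling. In this profile dmPGE2+APAP replicates 2 and 3, Control replicate 1 and APAP replicate 3 were below the mean, dmPGE2+APAP replicate 1 was near it and the other libraries were above it, so the profile did not separate the groups.

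Of the blood-cell markers, 1 row, miR-451a, was called, and only in dmPGE2+APAP against APAP. The 5 rows of the erythroid list summed to 396 to 423 CPM in dmPGE2+APAP, 813 to 1555 CPM in APAP and 468 to 606 CPM in Control, and no row was at 0 in any library. Of its log2 values in dmPGE2+APAP against APAP, 5 of 5 were below 0 (median -1.28, 5 at an unadjusted p under 0.05). In APAP against Control 5 of 5 were above 0 (median 1.17, 5 at that p), with 0 called. Both miR-144 arms and both miR-486a arms are among the 5, so these rows are not independent. miR-451a, a red-cell microRNA, had 291, 279 and 314 CPM in dmPGE2+APAP, 1172, 639 and 590.2 CPM in APAP, and 402, 446 and 379 CPM in Control. It was the row called lower in dmPGE2+APAP against APAP (log2 -1.44, SE 0.25, edgeR adjusted p 0.00993), and no row was called there without APAP replicate 1 or without dmPGE2+APAP replicate 2. The 4 myeloid rows summed to 153 to 238 CPM in dmPGE2+APAP, 177 to 319 CPM in APAP and 124 to 233 CPM in Control. By row, 4 of 4 myeloid log2 values were below 0 in dmPGE2+APAP against APAP (median -0.75, 1 at an unadjusted p under 0.05). In APAP against Control 4 of 4 were above 0 (median 0.59, 2 at that p), with 0 called in each. Of all 360 rows, 50% were below 0 and 3.89% lower at that p in dmPGE2+APAP against APAP. In APAP against Control 55.3% were below 0 and 6.39% higher at that p. The 4 rows are both arms of the miR-223 and miR-142a hairpins, so they are not independent. miR-223-3p, a neutrophil and monocyte microRNA, had 18.4, 7.67 and 15.1 CPM in dmPGE2+APAP, 34.8, 19.0 and 29.2 CPM in APAP, and 13.9, 10.7 and 15.8 CPM in Control. Its libraries in dmPGE2+APAP were all below those in APAP (log2 -0.93, SE 0.32, edgeR adjusted p 0.326), a pattern that 8.06% of all 360 rows showed. Hepatocyte markers, led by miR-122-5p, summed to 353002 to 392593 CPM in dmPGE2+APAP, 328466 to 388121 CPM in APAP and 375308 to 524761 CPM in Control. The lymphoid, endothelial and mesenchymal lists overlapped between all groups, with summed levels of 29.3 to 35.2 CPM, 8787 to 10173 CPM and 25688 to 41500 CPM in dmPGE2+APAP. The part of these cell types in the values of the members was not tested. In whole tissue, fewer cells of a type and less RNA per cell cannot be told apart.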

How the data were processed

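The data are small-RNA libraries of 9 liver samples. The authors deposited whole-number read counts per mature microRNA, per the file headers, and TPM values, which per the file headers and the values equal the count over the library total times 1000000 with no length term. The submitters' processing notes name Bowtie and mm10. Sources used here do not give the counting tool, annotation or strandedness. Columns named BC were taken as Control, the only group left. The test used edgeR 4.0.16 (R 4.3.3): TMM scaling, filterByExpr (minimum count 10, minimum total 15), 1 robust quasi-likelihood fit of 3 group means on 9 libraries, 3 comparisons and Benjamini-Hochberg adjustment at 0.05. Standard errors and 95% intervals derive from the F statistic. Alternatives used DESeq2 1.42.0, limma 3.58.1, limma on log2(TPM + 1), other scalings and filters, thinning, a replicate block, 2 groups only, summed seed families and leaving out each library. Scripts were tested on simulated data. The members and lists were chosen with earlier results of these data known. Named rows are the members, the other arms, both paralog clusters, rows sharing a seed, the 4 most abundant MYC-repressed rows, the 5 most similar profiles and markers.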

Additional observations from a re-analysis of the deposited data

How the results depend on the processing

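No member passed in any of the 19 alternatives over separate rows: edgeR, DESeq2 or limma called 0 members in each of the 3 comparisons, with or without the replicate block and without any library. The alternatives refit the same 9 libraries, so a kept sign is no replication. They include miR-18a-5p and miR-19a-3p, whose direction is no support because of the filter. In dmPGE2+APAP against APAP and against Control, each of the 131 and 130 alternative values kept its sign. These totals, and the 132 for APAP against Control, also include fits of summed seed families. Such a fit counts once for each member with the seed, and some families hold mostly reads of rows outside the list. The lowest adjusted p was 0.184 and 0.105, both for miR-19a-3p. Sizes moved more: without 1 library, dmPGE2+APAP against Control ran from -0.63 to -0.065 for miR-19b-3p, -0.41 to -0.079 for miR-92a-3p, -0.46 to -0.20 for miR-20a-5p and -0.60 to -0.28 for miR-17-5p, and dmPGE2+APAP against APAP from -0.61 to -0.30 for miR-17-5p. In APAP against Control 30 of 132 changed sign, all for members whose main log2 values lay between -0.22 (miR-19a-3p) and 0.046 (miR-19b-3p). For miR-17-5p the log2 value was 0.018 with RLE factors or DESeq2, 0.23 with library totals, 0.24 on log2(TPM + 1), 0.0071 at a mean of at least 10 CPM, 0.0075 with 2 groups only, 0.14 after thinning and 0.13 for the summed seed family, and -0.085 to 0.12 without 1 library. For miR-19a-3p it was 0.039 with library totals, 0.036 on log2(TPM + 1), 0.094 for the seed family and -0.48 to 0.024 without 1 library. For miR-20a-5p it was 0.11, 0.13 and 0.13 in that order, and -0.25 to 0.043 without 1 library. It was -0.013 for miR-19b-3p and -0.069 for miR-92a-3p with no filter, -0.0020 for miR-92a-3p with the replicate block, and -0.32 to 0.39 and -0.082 to 0.10 without 1 library. The cause was not tested.

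Counts over all miRNAs depended on the processing. APAP against Control (3 called) gave 7 with RLE factors, 8 with library totals, 9 with no filter, 0 at a mean of at least 10 CPM, 13 with DESeq2, 8 on log2(TPM + 1), 7 with 2 groups only, 0 with the replicate block, and 0 to 9 without 1 library (0 without APAP replicate 1 or 3 or Control replicate 2, 1 without Control replicate 1 or 3, 9 without APAP replicate 2, and 8, 6 and 8 without dmPGE2+APAP replicates 1, 2 and 3). dmPGE2+APAP against APAP (1 called) gave 9 with no filter, 8 with DESeq2, 0 with 2 groups only, 4 after thinning, 2 with the block, and 0 to 5 without 1 library (0 without APAP replicate 1 or dmPGE2+APAP replicate 2, 5 without APAP replicate 2, 4 without dmPGE2+APAP replicate 1). dmPGE2+APAP against Control (1 called) gave 2 with RLE factors, library totals, no filter or DESeq2, 0 at a mean of at least 10 CPM, with limma-voom and after thinning, and 1 to 2 without 1 library (2 without APAP replicate 3 or dmPGE2+APAP replicate 1). Deviations of same-numbered libraries correlated at -0.25 to 0.17 (median -0.10 over 9 pairs). The labels give these libraries only a number in common, and whether they share a batch cannot be told from the correlations.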
